A study of Homo sapiens with 6 samples.

Results

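The genes described here encode the enzymes that copy nuclear DNA in human cells: 2 subunits of DNA polymerase alpha (POLA1, POLA2), the 2 primase subunits (PRIM1, PRIM2), 3 subunits of DNA polymerase delta (POLD1, POLD2, POLD3), 2 subunits of DNA polymerase epsilon (POLE, POLE2) and the sliding clamp PCNA. They were chosen by symbol as a functional group, with earlier results of these data known. All 10 of 10 were found among the 14788 genes of the deposited expression table. All 10 passed the filter on low values that left 13765 genes for testing. The cells were CAL51, an established human triple-negative breast cancer line, in 3 groups of 2 bulk RNA-seq libraries. The TREX1 KO-1 and TREX1 KO-2 groups were made by lentiviral CRISPR v2 with a different TREX1 guide in each, and the control group is not described further in the sources used here. TREX1 is a cytosolic exonuclease that degrades DNA from its 3′ end. The libraries were made from polyA RNA, and no drug treatment or time point is given for any group. The deposited note speaks of multiple knockout clones without saying which library holds which. Nothing says that the 2 libraries of a group came from separate cultures, so each p-value reflects library-to-library spread that could be purely technical.

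Polymerase alpha and primase act as a single complex, in which primase lays down a short RNA primer and polymerase alpha extends it with a stretch of DNA. Clamp loaders then place the PCNA ring on the primed template, and PCNA holds polymerase delta, which makes most of the lagging strand. Polymerase epsilon travels with the replicative helicase and makes most of the leading strand. These enzymes are needed in S phase, and many of their genes are known targets of E2F transcription factors, which drive entry into S phase.

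The promoters of these genes are shown first because E2F factors are known regulators of many of these genes, and the E2F-type matches are printed for that reason. RefSeq promoter windows (GRCh38.p14) were matched for 9 of the 10 genes by symbol, with POLD3 unmatched, and a gene can have several windows: the 9 genes had 12. The 250 bases before each RefSeq start were searched on both strands for TTTCCCGC, TTTGGCGC, TTTCGCGC and TTTGCCGC. At least 1 of these letter strings occurred in 4 of the 12 windows, 1 each of PCNA, POLA1, POLA2 and POLE, and in 2.79% of 35116 promoter windows of the same length. The stretches that hold the matches are printed 5′ to 3′ on the strand of the gene, with the match in capitals. RefSeq starts can differ from those of the gene annotation used further on.
PCNA, chr20:5126654-5126701, minus strand: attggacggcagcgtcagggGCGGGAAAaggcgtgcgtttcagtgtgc
POLA1, chrX:24693761-24693808, plus strand: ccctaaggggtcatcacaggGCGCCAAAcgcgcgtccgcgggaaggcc
POLA2, chr11:65261889-65261936, plus strand: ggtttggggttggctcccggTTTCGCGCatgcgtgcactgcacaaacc
POLE, chr12:132687343-132687380, minus strand: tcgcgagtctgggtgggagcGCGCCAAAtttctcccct

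The PCNA match was TTTCCCGC read on the opposite strand, 59 bases before the start, and it shared 4 bases with a GGGCGG match. POLA1 and POLE held TTTGGCGC on the opposite strand, 137 and 18 bases before the start, and POLA2 held TTTCGCGC on its own strand at 53 bases. By single motif, TTTCCCGC occurred in 1.39% of all promoters, TTTGGCGC in 0.55%, TTTCGCGC in 0.439% and TTTGCCGC in 0.49%. The cell-cycle strings TTTGAA and TTCGAA, which occurred in 14.3% of all promoters counted jointly, were found in 0 of the 12 windows. CCAAT occurred in 6 of the 12 windows, from 5 genes (PCNA, POLA1, POLD2, POLE, PRIM1), and in 32.0% of all promoters. GGGCGG occurred in 7 of the 12, from 6 genes (PCNA, POLA1, POLD1, POLD2, POLE, POLE2), and in 42.6%. A match describes the letters of the window and is no evidence of binding.

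The recovered depth was 22941234 and 25785055 reads in the control libraries, 16802681 and 18440036 in KO-1, and 13222933 and 20154836 in KO-2. Values are log2 CPM, the read count scaled to library size. KO-2 replicate 1 was the shallowest library and listed 61 genes at 0, against 5 to 16 in the other libraries. Of 6 epithelial markers, EPCAM (8.03 to 8.31), KRT8 (9.57 to 9.93), KRT18 (8.60 to 9.01) and KRT19 (8.23 to 8.85) were high in every library, CDH1 lay at 4.84 to 5.41, and KRT7 was near the filter limit at -0.20 to 0.65. Of 3 receptors that define the triple-negative class, ESR1 and PGR have no row in the table, while ERBB2 was present at 7.35 to 7.64 in every library. Of 4 leukocyte markers, only PTPRC had a row, at 3.95 to 4.35. The mesenchymal marker VIM lay at 6.20 to 6.74, and the fibroblast markers COL1A1 and PDGFRB at 4.06 to 4.99 and 5.19 to 5.53. The endothelial markers PECAM1 and VWF lay at 1.18 to 2.19 and 2.03 to 2.24. TREX1 was not analysed here, so the labels were not checked against the targeted gene. Library medians over the tested genes lay between 4.95 and 5.02.

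With both guides pooled against control, 7 of the 10 genes fell and 0 rose: POLA1, POLA2, PRIM1, POLD1, POLD2, POLD3 and POLE. The median log2 fold change of the 10 was -0.40, against -0.01 over all genes tested, and all 10 values were negative. The share of all genes that fell under the same rule was 14.9%, and 14.6% rose. A gene was called when its limma p, adjusted by Benjamini-Hochberg across the 13765 genes tested, was under 0.05. In 8 of the 10 genes, all 4 knockout libraries lay below both controls, as they did in 24.0% of all genes tested. The exceptions were PRIM2 and POLE2, and in each it was KO-2 replicate 1 that reached the control range. With the library medians set equal, the same 7 genes stayed called, while the split over all genes moved from 2057 lower and 2011 higher to 1598 lower (11.6%) and 2575 higher. Because the 10 genes were chosen with earlier results of these data known, these counts beside the shares of all genes are no independent test. The RNA is from bulk culture, so fewer cells in S phase and less RNA per cell cannot be told apart.

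**Figure D1:**
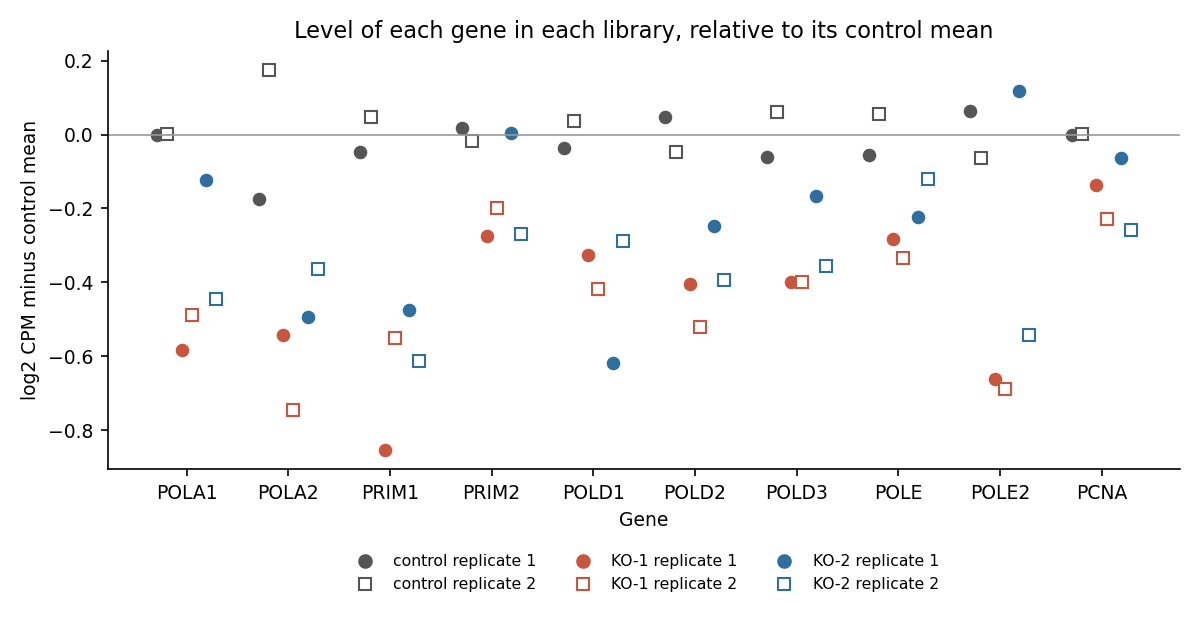
Log2 CPM minus the control mean of each gene, for the 10 genes in each of the 6 libraries. Colours stand for groups and marker shapes for replicates. Both KO-1 libraries lie below both controls for all 10 genes. The share over all genes was not counted, but is at least the 24.0% with all 4 knockout libraries below both controls. KO-2 replicate 1 reaches the control range in PRIM2 and POLE2.

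PRIM1, the catalytic primase subunit that joins the first ribonucleotides, had the lowest fold change of the 10. PRIM1 stood at 4.08 and 4.18 log2 CPM in the controls, 3.28 and 3.58 in KO-1 and 3.66 and 3.52 in KO-2. All 4 knockout libraries were below both controls, and the KO-1 and KO-2 ranges overlapped. PRIM1 fell by 0.62 on the log2 scale (SE 0.13, 95% interval -0.90 to -0.34, limma adjusted p = 0.0042), a change of -35.0% in CPM. It lies at chr12:56731596-56752373 on the minus strand (hg38, GENCODE 29). Of its exonic bases, 14.9% are also annotated to AC117378.1 and 1.35% to NACA on the same strand, so its reads may be shared. NACA lay at 7.97 to 8.06 log2 CPM. HSD17B6, on the opposite strand, shares 5.42%.

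PRIM2, the regulatory primase subunit, moved less. Its log2 CPM was 5.51 and 5.47 in the controls, 5.21 and 5.29 in KO-1 and 5.49 and 5.22 in KO-2. KO-2 replicate 1 lay between the 2 controls, and the other 3 knockout libraries were below them. The log2 fold change of PRIM2 was -0.18 (SE 0.09, 95% interval -0.38 to 0.01, limma adjusted p = 0.14). The gene lies at chr6:57314805-57646849 on the plus strand.

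POLA1 encodes the catalytic subunit of polymerase alpha. Its level was 6.82 log2 CPM in both controls, 6.24 and 6.33 in KO-1 and 6.70 and 6.38 in KO-2. The 4 knockout libraries were all lower, with KO-2 replicate 1 the closest to control. POLA1 fell by 0.41 (SE 0.08, 95% interval -0.59 to -0.23, limma adjusted p = 0.0041), a change of -24.7% in CPM. It lies at chrX:24693919-24996986 on the plus strand.

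POLA2, the accessory B subunit of polymerase alpha, had the fewest reads of the 10, from 105 to 336 per library. POLA2 measured 3.35 and 3.70 in the controls, 2.98 and 2.78 in KO-1 and 3.03 and 3.16 in KO-2. The groups did not overlap, although the controls differed from each other by more than in any other of the 10 genes. POLA2 fell by 0.54 (SE 0.15, 95% interval -0.87 to -0.21, limma adjusted p = 0.021). The gene lies at chr11:65261762-65305589 on the plus strand, and 35.1% of its exonic bases are shared with AP000944.2 on the same strand.

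POLD1 carries the polymerase and proofreading activities of polymerase delta. Its log2 CPM was 6.61 and 6.68 in the controls, 6.32 and 6.22 in KO-1 and 6.02 and 6.35 in KO-2. The lowest value was that of KO-2 replicate 1, the opposite order to POLA1, PRIM2 and POLE2 within that group. POLD1 fell by 0.41 (SE 0.09, 95% interval -0.60 to -0.22, limma adjusted p = 0.0048). It lies at chr19:50384204-50418016 on the plus strand, with 8.64% of its exonic bases also annotated to AC020909.1.

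POLD2 is the subunit that ties the catalytic subunit of polymerase delta to POLD3. POLD2 stood at 7.85 and 7.76 in the controls, 7.40 and 7.28 in KO-1 and 7.56 and 7.41 in KO-2. Every knockout library was lower than both controls, by more than the gap between the controls. It fell by 0.39 (SE 0.06, 95% interval -0.52 to -0.26, limma adjusted p = 0.00097), the smallest p of the 10, and lies at chr7:44114681-44124358 on the minus strand.

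POLD3, an accessory subunit that binds PCNA, measured 6.29 and 6.41 in the controls, 5.95 in both KO-1 libraries, and 6.19 and 5.996 in KO-2. The knockout libraries were all below the controls. POLD3 fell by 0.33 (SE 0.07, 95% interval -0.49 to -0.17, limma adjusted p = 0.0063) and lies at chr11:74493851-74669117 on the plus strand. Of its exonic bases, 2.23% are shared with AP001372.2 on the same strand.

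POLE is the catalytic subunit of polymerase epsilon. Its log2 CPM was 7.76 and 7.87 in the controls, 7.54 and 7.48 in KO-1 and 7.59 and 7.70 in KO-2. The groups did not overlap, and KO-2 replicate 2 was the closest to the lower control. POLE fell by 0.24 (SE 0.05, 95% interval -0.36 to -0.12, limma adjusted p = 0.0075), a change of -15.3% in CPM, the smallest change among the 7 called. It lies at chr12:132623753-132687365 on the minus strand.

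POLE2, the B subunit of polymerase epsilon, had the widest spread within a group. POLE2 stood at 4.38 and 4.25 in the controls, 3.65 and 3.63 in KO-1 and 4.43 and 3.77 in KO-2. KO-2 replicate 1 was above both controls, and KO-2 replicate 2 was near the KO-1 level. The log2 fold change of POLE2 for both guides was -0.44 (SE 0.16, 95% interval -0.79 to -0.09, limma adjusted p = 0.058). It lies at chr14:49643555-49688422 on the minus strand.

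PCNA, the homotrimeric clamp, was 7.99 in both controls, 7.85 and 7.76 in KO-1 and 7.93 and 7.73 in KO-2. All 4 knockout values lay below the controls, with KO-2 replicate 1 the closest to them. The log2 fold change of PCNA was -0.17 (SE 0.06, 95% interval -0.30 to -0.04, limma adjusted p = 0.051), or -11.2% in CPM, the smallest of the 10. PCNA lies at chr20:5114953-5126626 on the minus strand. Processed pseudogenes nearly identical in sequence to PCNA exist in the genome, and the sources used here do not say how reads shared with them were assigned.

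**Figure D2:**
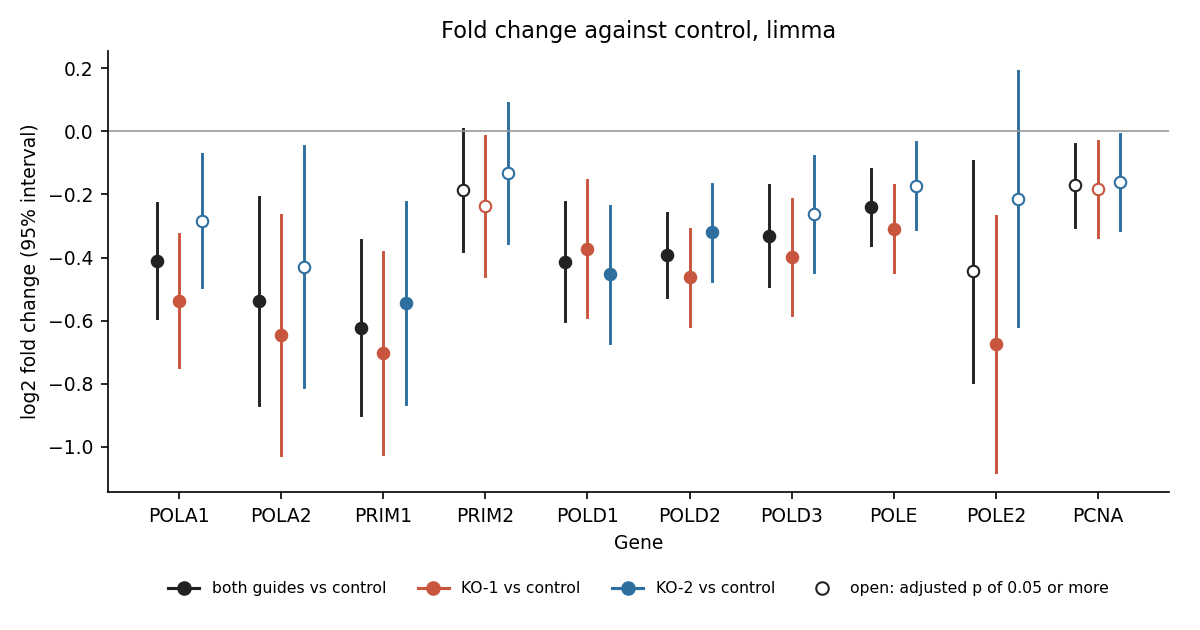
Log2 fold change of each gene against control with its 95% interval from limma, for both guides together, KO-1 and KO-2. Filled points have an adjusted p below 0.05, and every point plotted lies below 0.

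Of the fits that each left out a library, those without a control library lost the most calls for both guides. Dropping the mean-variance trend, with all libraries kept, left 2 of the 10 genes called, against 8.51% of all genes lower. Without control replicate 2, 1 of the 10 genes was called for both guides (POLD2), and without control replicate 1 there were 5, with POLA1 and POLA2 each at a limma adjusted p of 0.054. The share of all genes called lower was then 4.98% and 4.17%, respectively. Without KO-1 replicate 1 the count stayed at 7 (9.64% of all genes lower), and without KO-1 replicate 2 POLA2 was lost (adjusted p = 0.071; 9.55%). Without KO-2 replicate 1 all 10 were called lower, against 21.5% of all genes, and without KO-2 replicate 2 there were 9 of 10, against 22.5%. POLD2 kept its call in 14 of 14 alternatives.

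For KO-1 alone, 8 of the 10 fell and 0 rose, against 15.1% of all genes lower. The median log2 fold change was -0.43. PRIM1 fell by 0.70 (limma adjusted p = 0.0046), POLE2 by 0.67 (0.018), POLA2 by 0.64 (0.017) and POLA1 by 0.54 (0.0020). POLD2 fell by 0.46 (0.00080), POLD3 by 0.40 (0.0047), POLD1 by 0.37 (0.016) and POLE by 0.31 (0.0042). PRIM2 stood at -0.24 (adjusted p = 0.10) and PCNA at -0.18 (0.069). Both KO-1 libraries were below both controls in 10 of 10 genes. The share over all genes was not counted, but is at least the 24.0% with all 4 knockout libraries below both controls. Without control replicate 1 or 2, 6 and 2 genes were called, when 5.92% and 6.63% of all genes were lower. Without KO-1 replicate 1 or 2 there were 3 each time, against 7.21% and 6.97%. Without either KO-2 library there were 10, against 22.9% of all genes.

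For KO-2 alone, 3 of the 10 fell (PRIM1, POLD1 and POLD2) and 0 rose, against 8.19% of all genes lower. The median log2 fold change was -0.27. PRIM1 fell by 0.54 (limma adjusted p = 0.028), POLD1 by 0.45 (0.012) and POLD2 by 0.32 (0.012). POLA2 was at -0.43 (adjusted p = 0.12), POLA1 at -0.28 (0.065), POLD3 at -0.26 (0.054) and POLE2 at -0.21 (0.46). Values for the remaining genes were -0.17 for POLE, -0.16 for PCNA and -0.13 for PRIM2, with adjusted p from 0.085 to 0.40. Without control replicate 1 or 2, 0 genes were called, when 0.988% and 1.22% of all genes were lower. Without KO-2 replicate 1 there were 8 (13.2% of all genes lower), and without KO-2 replicate 2 there were 4 (16.7%). A lone library left in a group is assumed in these fits to vary like the other groups.

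In the authors' deposited table, the false discovery rate was below 0.05 for 8 of the 10 genes in KO-1, against 14.8% of all genes lower. The 2 left out there were PRIM2 (0.095) and PCNA (0.058). For KO-2, the authors' deposited table called 4 of the 10 lower, PRIM1, POLD1, POLD2 and POLD3 (0.044), against 8.07% of all genes. For KO-2 against KO-1, 0 of the 10 passed in the authors' deposited table, against 1.49% of all genes in either direction.

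The knockout groups were also compared with each other. Since clones are not assigned to libraries, guide and clone cannot be told apart here. In limma, 0 of the 10 genes passed for KO-2 against KO-1, and 1.14% of all genes did in either direction. KO-2 means were above KO-1 means in 9 of the 10 genes, all but POLD1. Of the 13765 genes tested, 6924 had a KO-2 mean below the KO-1 mean. At an unadjusted limma p below 0.05 there were 2 of the 10, and 2381 of the 13765 genes tested. The 2 were POLE2, with a log2 difference of 0.46 (95% interval 0.06 to 0.87, limma adjusted p = 0.23), and POLA1, with 0.25 (0.04 to 0.46, adjusted p = 0.21). PCNA differed by 0.02 (adjusted p = 0.90). Without KO-2 replicate 2, 5 genes were called: POLA1, POLD2, POLD3 and POLE2 higher and POLD1 lower, when 23.0% of all genes were called in either direction. The same control libraries served both guides, so the values of KO-1 and KO-2 against control are not independent of each other.

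The KO-2 libraries stood further apart than those of the other groups. The median absolute difference between replicates over the 10 genes was 0.19 in KO-2, 0.09 in KO-1 and 0.10 in control, and over all genes 0.16, 0.09 and 0.08. KO-2 replicate 1 was higher than replicate 2 in 7 of the 10 genes, by 0.66 for POLE2, 0.32 for POLA1 and 0.27 for PRIM2, and lower by 0.33 for POLD1. The median difference of the 10 genes from the control mean was -0.40 and -0.45 in the KO-1 libraries, -0.20 in KO-2 replicate 1 and -0.36 in KO-2 replicate 2. KO-2 replicate 1 was also the library with the fewest reads, and the part of depth in these values was not tested beyond thinning every library to the depth of the shallowest, after which 8 of the 10 genes were called for both guides and 13.8% of all genes were lower.

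Levels were set side by side per length, as CPM per kilobase of annotated exon. In the controls, PCNA had the highest level of the 10 at 173 ± 0.10 (SD, n = 2), followed by POLD2 at 60.5 ± 2.84. POLD1 was at 20.2 ± 0.70, POLA1 at 17.8 ± 0.02, POLD3 at 14.8 ± 0.87 and POLE at 13.6 ± 0.73. The gap between POLD3 and POLE was no larger than their combined SDs. PRIM2 was at 9.61 ± 0.16, PRIM1 at 7.15 ± 0.33 and POLE2 at 6.70 ± 0.43, and the last pair did not differ beyond its spread. POLA2 was lowest, at 2.00 ± 0.35. The order in the middle depends on the length used. By coding length, POLD3 came next after PCNA and POLD2 at 58.4 and POLE was at 32.9, while POLE2, PRIM1 and POLA2 were the lowest and PCNA and POLD2 the highest by exonic, principal-transcript and coding length.

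**Figure D3:**
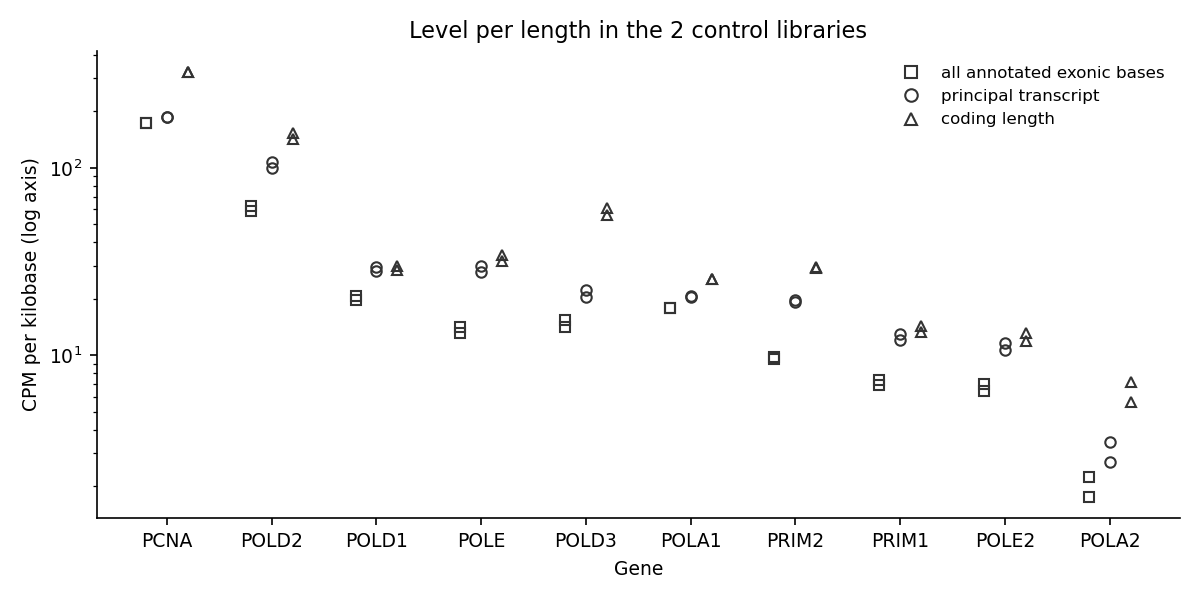
CPM per kilobase on a log axis for the 10 genes in the control libraries, with a point per library. Marker shapes stand for all annotated exonic bases, the principal transcript and the coding length. PCNA and POLD2 lie highest and POLA2 lowest, and the ranking is a description of levels with no test.

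Within the complexes, the log2 difference between partners was compared between control and knockout libraries in 7 pairs. PRIM1 minus PRIM2 was -1.42 and -1.29 in the controls, -1.94 and -1.71 in KO-1 and -1.84 and -1.70 in KO-2. The catalytic primase subunit was thus lower relative to its partner in all 4 knockout libraries. POLA1 minus PRIM2 was 1.31 and 1.35 in the controls, 1.02 and 1.04 in KO-1 and 1.20 and 1.15 in KO-2, and again did not overlap. Both pairs gave an exact two-sided permutation p of 0.0667, the smallest that 15 arrangements of these 6 libraries allow, and 0.233 after Benjamini-Hochberg adjustment over the 7 pairs. The other 5 pairs had an exact permutation p between 0.267 and 0.933, with the differences between control and knockout means from 0.02 (POLD1 and POLD2) to 0.24 (PCNA and POLD1) in size. POLE minus POLE2 was 3.39 and 3.62 in the controls, 3.88 and 3.86 in KO-1, and 3.16 and 3.93 in KO-2, so the KO-2 libraries lay on both sides of control.

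The other genes that work with these enzymes were followed in fixed lists, also chosen with earlier results of these data known. Their counts are therefore no independent test either. Over all lists, 24 of 64 genes tested fell and 3 rose for both guides, with a median log2 fold change of -0.18, where 14.9% of all genes fell and 14.6% rose. For KO-1 27 of the 64 fell, against 15.1% of all genes, and for KO-2 12, against 8.19%. Without control replicate 1 or 2, 12 and 14 list genes were called in either direction, when 9.34% and 11.0% of all genes were, and without KO-2 replicate 1 there were 40, against 42.6%. Of 9 clamp loader genes, which open the PCNA ring and close it on DNA or remove it, 4 fell and 0 rose (median -0.24). DSCC1 of an alternative loader fell by 0.55 (limma adjusted p = 0.0016), ATAD5, which unloads PCNA, by 0.54 (0.0028), and RFC3 by 0.28 (0.0045). Of 9 fork scaffold and topoisomerase genes, 7 fell and 0 rose (median -0.34). Among them CLSPN, a checkpoint mediator at the fork, fell by 0.46 (0.00034), TIMELESS of the fork protection complex by 0.34 (0.00050) and the replisome protein DONSON by 0.53 (0.00064). Of 6 tested genes for primer removal and ligation, 3 fell and 0 rose (median -0.22). They were the nuclease-helicase DNA2, which fell by 0.48 (0.00091), the flap nuclease FEN1, by 0.22 (0.012), and the ligase LIG1, by 0.22 (0.022).

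Of the 3 small subunits of delta and epsilon, 0 fell and 0 rose, with a median of 0.12, where 14.9% of all genes fell and 14.6% rose. POLE3, a histone-fold subunit of polymerase epsilon, was at 6.88 and 6.82 in the controls, 6.90 and 6.95 in KO-1 and 7.03 and 7.02 in KO-2. All 4 knockout libraries were above the controls, and the log2 fold change was 0.12 (limma adjusted p = 0.11). POLE4, its histone-fold partner, had a log2 fold change of -0.03 (95% interval -0.24 to 0.17, limma adjusted p = 0.81). POLD4, the smallest delta subunit, had 13 to 64 reads per library. Its log2 fold change was 0.16 with a wide interval of -0.69 to 1.01 (limma adjusted p = 0.79). Over the alternatives that tested POLD4, the log2 fold change ran from -0.21 to 0.53. POLE3 passed as higher with library medians set equal (limma adjusted p = 0.0369), when 18.7% of all genes were called higher. Its log2 fold change was 0.12 without either KO-2 library. The difference between these subunits and the catalytic ones was not tested.

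Among 15 genes whose proteins bind or modify PCNA, 4 fell and 2 rose, with a median of -0.05, beside 14.9% and 14.6% of all genes. CDKN1A, which encodes the cyclin-dependent kinase inhibitor p21 and binds PCNA, was at 6.82 and 6.75 in the controls, 8.27 and 8.24 in KO-1 and 7.65 and 7.84 in KO-2. The 3 groups did not overlap, with KO-1 the highest. CDKN1A rose by 1.21 (limma adjusted p = 1.2e-06), and its KO-2 level was below that of KO-1 (adjusted p = 0.0071). The other gene that rose was WDR48, named after its value was seen, a partner of the PCNA deubiquitinase USP1 (0.31, adjusted p = 0.023). DNMT1, the maintenance DNA methyltransferase that PCNA brings to the fork, fell by 0.52 (2.4e-05), and UHRF1, which guides DNMT1 to newly copied DNA, fell by 0.47 (0.00031).

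Of 6 general proliferation markers, 1 fell and 0 rose for both guides, with a median of -0.13, a share near the 14.9% of all genes that fell. Called in either direction, the count was 0 with library medians set equal and with no mean-variance trend, against 30.3% and 16.0% of all genes. It was 3 with quantile normalization, against 29.2% of all genes. The count also moved when a library was left out. BIRC5, which encodes the mitotic protein survivin, fell by 0.17 (limma adjusted p = 0.036), while MKI67 was at -0.24 (0.077) and CCNA2 at -0.16 (0.078). For KO-1, 3 of the 6 fell (15.1% of all genes), and for KO-2 0 (8.19%). The part of a change in the share of cycling cells in the values of the 10 genes was not tested.

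**Figure D4:**
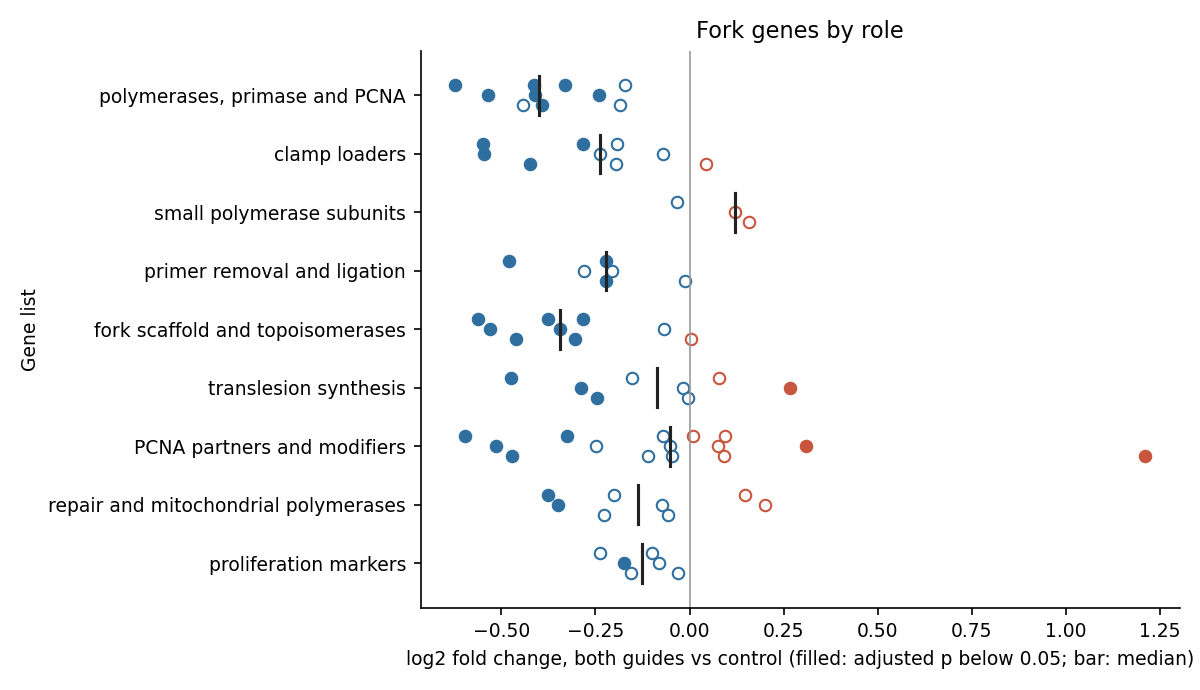
Log2 fold change for both guides against control of every tested gene in the polymerase set and the replication lists, with a point per gene and filled points for an adjusted p below 0.05. The 10 polymerase genes lie between -0.62 and -0.17, while CDKN1A stands alone at 1.21.

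The profile of the 10 genes over the 6 libraries was averaged after centring each gene, which gave 0.23 and 0.27 in the controls, -0.20 and -0.21 in KO-1 and 0.02 and -0.12 in KO-2. Likeness to it was measured as the root mean square difference in log2 CPM over the 6 libraries for 12206 other genes, whose median was 0.229. Of the 10, POLD3 lay nearest to the average (0.0340) and POLE2 farthest (0.206). The 6 nearest other genes were CCDC134 (0.0200), KIF20B (0.0242), UTP4 (0.0244), DCLRE1B (0.0251), NAAA (0.0270) and NEK1 (0.0283). KIF20B encodes a mitotic kinesin, DCLRE1B a 5′ exonuclease that acts at telomeres, and UTP4 a ribosome biogenesis factor. The functions of CCDC134, NAAA and NEK1 are not described here, and a shared function of the 6 was not tested.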

How the data were processed

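PolyA RNA from 6 CAL51 libraries was sequenced. The submitters' processing notes name fastp, STAR 2.7, featureCounts of Subread 2.0, edgeR and hg38, while the annotation and strand setting are not stated there. The authors deposited log2 CPM, and a table of their own log2 fold changes with p-values and false discovery rates. Each linear value, with a prior of 0.102 CPM taken off, was a whole multiple of 1 read in 100% of the values compared (tolerance 0.01 of a read). A read was worth 0.0383 to 0.0767 CPM.

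Genes that reached a log2 CPM of 0 in 2 or more libraries were tested with limma 3.58.1 in R 4.3.3 (group means, moderated variances with a trend) after tests on simulated data. Adjustment was by Benjamini-Hochberg over 13765 genes. Alternatives covered filtering, scaling, pseudocount, trend, depth, a replicate block and each library left out; 2 tests with count models were not run. Lengths and positions came from GENCODE 29 and promoters from RefSeq. All 10 genes, up to 3 genes per list by smallest p, POLD4, POLE3, POLE4, CDKN1A and the 6 nearest profiles are named. The members and lists were chosen with earlier results of these data known. Mouse and single-cell samples were not analysed here.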

Additional observations from a re-analysis of the deposited data

How the results depend on the processing

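Over 14 alternatives for both guides, 115 values of single genes kept their direction and side of the threshold, 14 lost their call and 11 gained one. Without a mean-variance trend, 2 of the 10 genes were called for both guides, 4 for KO-1 and 0 for KO-2. The shares of all genes lower in these contrasts were then 8.51%, 8.96% and 0.559%. Of the 64 list genes, 13 were called in either direction for both guides, against 16.0% of all genes. Quantile normalization gave 7 for KO-2, with 8.21% of all genes lower. Over the fits that each left out a library, calls ranged from 1 to 10 for both guides, 2 to 10 for KO-1, 0 to 8 for KO-2, 0 to 5 for KO-2 against KO-1, and 12 to 40 over the lists; the shares of all genes lower ranged from 4.17% to 22.5%, 5.92% to 22.9% and 0.988% to 16.7% for the comparisons with control, and 0% to 23.0% were called for KO-2 against KO-1. Over the alternatives that kept all 6 libraries, 16.0% to 35.3% of all genes were called in either direction for both guides. List calls then ranged from 2 to 5 among clamp loaders, 4 to 7 among fork genes, 1 to 3 for primer removal and 1 to 4 for translesion synthesis. They ranged from 4 to 6 among PCNA partners, 1 to 2 among repair polymerases, 0 to 3 among proliferation markers and 0 to 1 among small subunits. All ranges but the last were wider once the fits that left out a library were added. In the fits that left out a library, the direction turned for KO-2 against control in PRIM2 (-0.27 to 0.0029) and POLE2 (-0.54 to 0.12). For KO-2 against KO-1 it turned in PCNA (-0.075 to 0.12), PRIM2 (-0.031 to 0.24) and POLD1 (-0.25 to 0.083). The cause was not tested. Replicate numbers did not pair the libraries (correlation of same-numbered deviations -0.05, 0.04 and -0.04 over genes). With a replicate block, 9 of the 10 genes were called for both guides (POLE2 and PCNA added), 8 for KO-1, 3 for KO-2 and 0 for KO-2 against KO-1. The shares of all genes lower against control were 13.9%, 14.2% and 7.26%, and 0.763% were called for KO-2 against KO-1. Of the 64 list genes, 24 were called in either direction for both guides, against 27.5% of all genes. POLA2, at 105 to 336 reads per library, had the fewest reads of the 10 genes. The planned quasi-likelihood and DESeq2 tests on recovered reads were not run.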

Other observations

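Other DNA polymerases act in damage bypass, repair and mitochondria. Of 8 translesion synthesis genes, 3 fell and 1 rose for both guides, with a median log2 fold change of -0.09, where 14.9% of all genes fell and 14.6% rose. PRIMPOL, a primase-polymerase that restarts stalled forks, fell by 0.48 (limma adjusted p = 0.0090), and RAD18, a ligase that ubiquitinates PCNA, fell by 0.25 (0.045). POLH, the polymerase that bypasses ultraviolet lesions and a known p53 target, rose by 0.27 (0.013). Of 8 tested repair and mitochondrial polymerase genes, 2 fell and 0 rose, with a median of -0.14, beside the same shares. POLQ, of theta-mediated end joining, fell by 0.38 (0.0013) and POLL, a gap-filling polymerase, by 0.35 (0.035), while the mitochondrial POLG was at -0.20 (0.075).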
